A study of Oryza sativa with 6 samples.

Results

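The CESA family of rice (Oryza sativa), which holds the catalytic subunits of cellulose synthase, was followed in leaf RNA of a DGP1 overexpressor and its wild type. Its members were 9 locus IDs, chosen by name from a list of known rice CESA genes, out of 19696 rows in the table of expression values. They comprised 6 genes assigned to the primary wall (CESA1 Os05g0176100, CESA2 Os03g0808100, CESA3 Os07g0424400, CESA5 Os03g0837100, CESA6 Os07g0252400 and CESA8 Os07g0208500) and 3 assigned to the secondary wall (CESA4 Os01g0750300, CESA7 Os10g0467800 and CESA9 Os09g0422500). The table itself pairs no ID with a name. RefSeq lists 1 rice gene under each of these 9 names, and for all 9 it lies on the chromosome given by the digits after Os in the ID. CESA3, CESA6 and CESA8 lie on chromosome 7, CESA2 and CESA5 on chromosome 3, and CESA4, CESA1, CESA9 and CESA7 on chromosomes 1, 5, 9 and 10.

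Both groups were leaves of rice seedlings 3 weeks old grown on the same MS-based medium. The wild type was ZH11, and DGP1-OE1 was the single overexpressor line, each with 3 libraries. The title of every library in both groups also carries the label Ck. DGP1 is a rice protein known for restraining chlorophyll synthesis and chloroplast development, and the study asked how it bears on metabolism. The labels give no promoter for the overexpressed gene. They also leave out whether a replicate was its own plant, so each p-value below rests on a spread between libraries that could be technical alone. The ID of DGP1 and the IDs of leaf marker genes are not paired with names in the sources used here, so neither the overexpression nor the tissue label was checked.

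Cellulose is made at the plasma membrane by rosette-shaped complexes that link glucose from UDP-glucose into chains. Each complex is built from several different CESA proteins. One set works in growing cells, where the primary wall is laid down and must still stretch. Another set works in cells that have stopped growing, such as xylem vessels and fibres, where the thick secondary wall gives strength. In rice CESA4, CESA7 and CESA9 form the latter set, and plants that lack any of them have brittle culms. A leaf holds few cells with thick walls beside its mesophyll. In bulk tissue fewer cells of a type and less RNA per cell cannot be told apart.

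None of the CESA genes tested differed between the genotypes at an adjusted p under 0.05, while levels moved widely between libraries of the same genotype. Primary wall genes made up most of the CESA transcript pool in every library. By mean level over the libraries they were led by CESA3, CESA8 and CESA1. The secondary wall genes were low, and CESA7 and CESA9 were listed at 0 in some libraries. DGP1-OE1 replicate 2 had the lowest CESA level of the 6 libraries, and DGP1-OE1 replicates 1 and 3 were among the 3 highest. All levels below are FPKM, in which the authors scaled fragments to transcript length and to the size of the library, so genes of different length can be set side by side. No counts were used and the depth behind a value is unknown, so a gene without signal is described only as listed at 0.

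Of the abundant primary wall genes, CESA1 varied most. Replicates 1, 2 and 3 of ZH11 held 7.53, 1.79 and 12.4 FPKM of it, and those of DGP1-OE1 held 6.82, 0.366 and 3.95 FPKM; values below follow the same order. Replicate 2 was the lowest library of either genotype, and the groups overlapped. The means were 7.23 ± 5.29 FPKM in the wild type and 3.71 ± 3.23 FPKM in DGP1-OE1 (SD, n = 3 each). The difference in log2(FPKM + 1), DGP1-OE1 minus ZH11, was -0.86 with a 95% interval of -2.35 to 0.63 (limma, adjusted p = 0.792), so neither no change nor a several-fold fall lies outside it.

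CESA3 was listed at 5.2, 6.27 and 8.57 FPKM in the ZH11 libraries and at 15.8, 3.72 and 5.76 FPKM in the DGP1-OE1 libraries. The overexpressor thus held both the highest and the lowest value. Its means were 6.68 ± 1.72 FPKM in the wild type and 8.43 ± 6.47 FPKM in DGP1-OE1 (SD, n = 3 each), and the log2 difference was 0.10 with an interval of -0.85 to 1.06 (limma, adjusted p = 0.973). This difference was -0.42 without DGP1-OE1 replicate 1 and -0.04 without ZH11 replicate 1, so its direction rested on single libraries.

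Over all libraries CESA8 was the steadiest of the abundant members, with a within-genotype SD of 0.611 in log2(FPKM + 1) against 0.704 for CESA3. Without DGP1-OE1 replicate 1 this order turned, with an SD of 0.698 for CESA8 and 0.334 for CESA3. CESA8 stood at 7.05, 3.56 and 6.9 FPKM in the wild type and at 4.34, 2.8 and 9.28 FPKM in DGP1-OE1. As for CESA1, replicate 2 was the lowest library of each genotype, and the ranges overlapped. The means were 5.83 ± 1.97 FPKM in the wild type and 5.47 ± 3.39 FPKM in DGP1-OE1 (SD, n = 3 each), with a log2 difference of -0.16 and an interval of -1.06 to 0.75 (limma, adjusted p = 0.953). It changed sign, to 0.16, without DGP1-OE1 replicate 2.

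**Figure D1:**
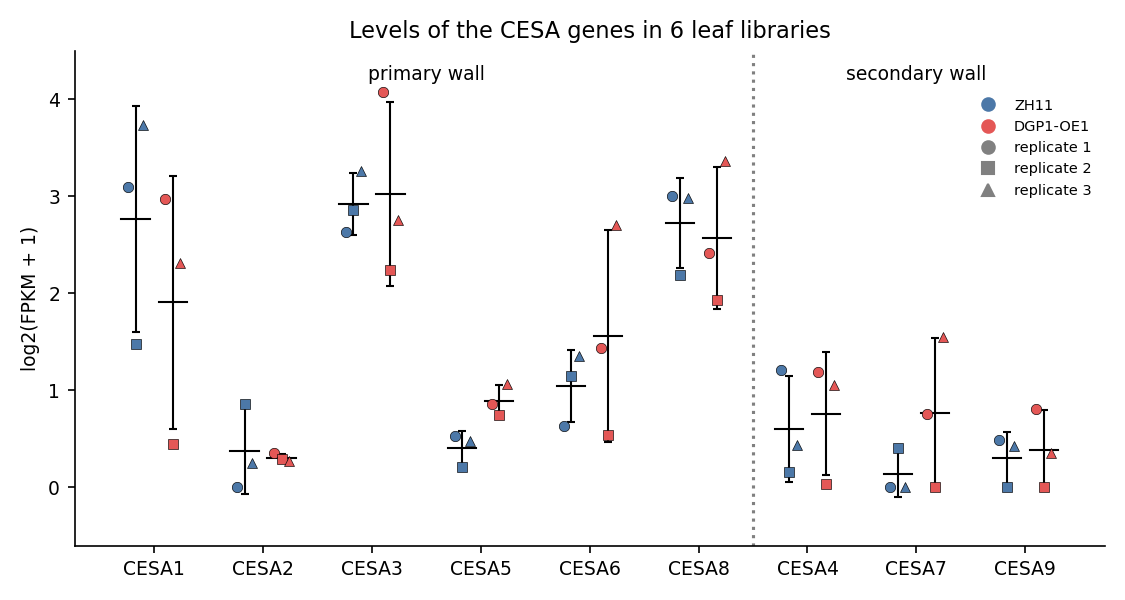
Level of each CESA gene on the log2(FPKM + 1) axis in every library, with ZH11 in blue and DGP1-OE1 in red; marker shapes give the replicate number, short bars the mean and whiskers the SD (n = 3). CESA1, CESA3 and CESA8 stand above the other members in most libraries, the genotypes overlap for all genes except CESA5, and the red square (DGP1-OE1 replicate 2) is the lowest point for CESA1, CESA3, CESA6, CESA8 and CESA4.

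CESA6 was less abundant, at 0.554, 1.21 and 1.56 FPKM in the wild type and 1.7, 0.453 and 5.53 FPKM in DGP1-OE1. DGP1-OE1 replicate 3 stood far above the other libraries. Its log2 difference was 0.52 with an interval of -0.65 to 1.68 (limma, adjusted p = 0.862), and without that library it was -0.06. The remaining members of the primary class stayed near the bottom of the table. CESA2 was listed at 0, 0.819 and 0.194 FPKM in the wild type and at 0.277, 0.225 and 0.204 FPKM in DGP1-OE1. The overexpressor values of CESA2 lay close together and inside the wild-type range.

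CESA5 was the only member whose genotypes did not overlap. It stood at 0.439, 0.157 and 0.397 FPKM in the wild type and at 0.818, 0.675 and 1.09 FPKM in DGP1-OE1, which is higher in each overexpressor library than in any wild-type library. The means were 0.331 ± 0.152 FPKM and 0.862 ± 0.212 FPKM (SD, n = 3 each), a ratio of 2.6. This gene is singled out after its values were seen. Of all 19696 rows, 6.47% were higher in DGP1-OE1 without overlap, so 1 such gene among 9 is near the background. CESA5 missed the level filter, because it reached 1 FPKM in only 1 library. In the fit without that filter its log2 difference was 0.48 with an interval of -0.20 to 1.16 (limma, adjusted p = 0.733), and with a pseudocount of 0.1 the difference was 1.21.

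The secondary wall genes were all low. CESA4 stood at 1.32, 0.12 and 0.351 FPKM in the wild type and at 1.29, 0.0219 and 1.07 FPKM in DGP1-OE1. It exceeded 1 FPKM in ZH11 replicate 1 and in DGP1-OE1 replicates 1 and 3, and replicate 2 was the lowest library of each genotype. CESA4 was the only secondary wall gene that passed the level filter, with 3 libraries at 1 FPKM or more, and its log2 difference was 0.16 with an interval of -0.89 to 1.2 (limma, adjusted p = 0.961). Its direction turned without ZH11 replicate 2 (-0.06) and without DGP1-OE1 replicate 1 (-0.06).

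CESA7 was listed at 0, 0.327 and 0 FPKM in the wild type and at 0.691, 0 and 1.93 FPKM in DGP1-OE1. The 2 highest values were those of DGP1-OE1 replicates 3 and 1, and the zeros fell in both genotypes. In the fit without the level filter its log2 difference was 0.63 with an interval of -0.26 to 1.53 (limma, adjusted p = 0.737). It was 0.24 without DGP1-OE1 replicate 3, 1.02 without DGP1-OE1 replicate 2 and 1.74 with a pseudocount of 0.1. CESA9 was listed at 0.402, 0 and 0.343 FPKM in the wild type and at 0.752, 0 and 0.281 FPKM in DGP1-OE1, so that both replicate 2 libraries were at 0. In the wild type CESA7 was listed above 0 only in the library in which CESA9 was not, while both were at 0 in DGP1-OE1 replicate 2. At such low values and unknown depth, nothing about these partners of CESA4 in the secondary wall complex is read from the zeros.

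Of the 9 members, 5 passed the level filter (CESA1, CESA3, CESA6, CESA8 and CESA4) and 0 of these were called higher or lower by limma at an adjusted p under 0.05. None of the 5 had an unadjusted p under 0.05 either, the lowest being 0.229 for CESA1. Over all 18270 genes tested, 0.356% were called, and a count of 0 among 5 is close to that background. All 5 tested members had overlapping groups, where 13.9% of the genes tested had none. Their log2 differences ran from -0.86 to 0.52, and the median difference of all genes tested was -0.01. Each of the 5 intervals reached past 1 log2 unit in one direction, so differences of that size lay inside them.

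**Figure D2:**
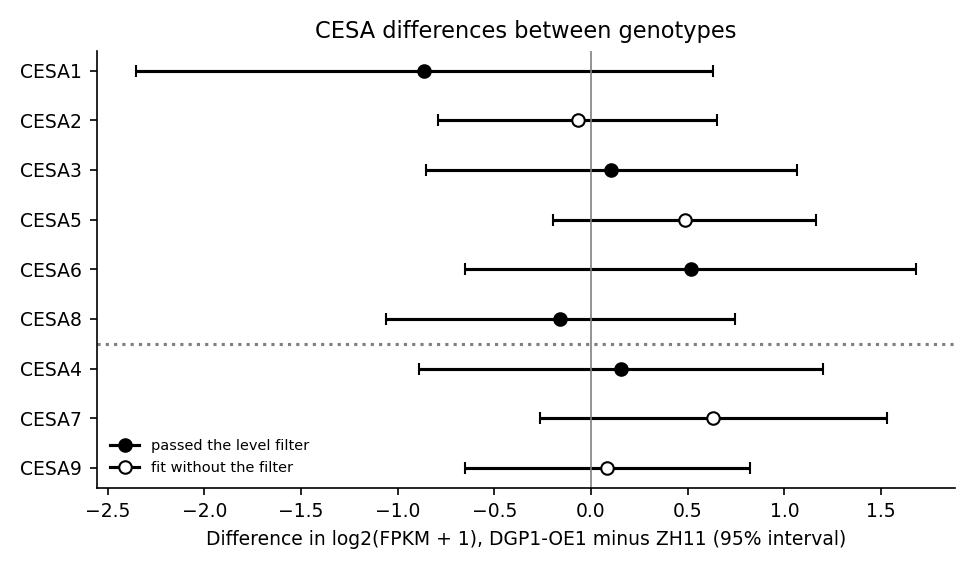
Difference in log2(FPKM + 1) between DGP1-OE1 and ZH11 for each CESA gene with its 95% interval from limma; filled points passed the level filter and open points come from the fit without it, and the dotted line parts primary (above) from secondary wall genes (below). All 9 intervals include 0, the widest being that of CESA1 from -2.35 to 0.63.

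Ranked among all 19696 rows of a library, CESA3, CESA1 and CESA8 had median percentiles of 44.8, 42.8 and 42.5 over the 6 libraries, a little below the middle of the table. The other members lay lower, from 14.3 for CESA6 to 1.74 for CESA7. In the order of mean levels, ZH11 ran CESA1, CESA3, CESA8, CESA6, CESA4, CESA2, CESA5, CESA9 and CESA7. The only neighbours in this order whose 3 libraries did not overlap were CESA8, at a mean of 5.83 FPKM, and CESA6, at 1.11 FPKM. In DGP1-OE1 the order was CESA3, CESA8, CESA1, CESA6, CESA7, CESA5, CESA4, CESA9 and CESA2, and every pair of neighbours overlapped. The lead of the abundant trio over CESA6 thus stood clear of the spread in the wild type and not in the overexpressor, where DGP1-OE1 replicate 3 had 5.53 FPKM of CESA6 and 3.95 FPKM of CESA1. Whether the genotypes differ in this order was not tested.

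The classes were then set against each other within each library. Secondary wall genes gave 7.65%, 3.14% and 2.26% of the summed CESA FPKM in ZH11 replicates 1, 2 and 3, and 8.4%, 0.264% and 11.3% in DGP1-OE1. The primary class was the larger one everywhere, from 7.87 times the secondary class in DGP1-OE1 replicate 3 to 377 times in DGP1-OE1 replicate 2, where CESA4 alone was above 0. The mean share was 4.35% ± 2.89 in ZH11 and 6.64% ± 5.71 in DGP1-OE1 (SD, n = 3 each), and the overexpressor range enclosed the wild-type range.

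On the log2(FPKM + 1) scale the secondary class mean lay below the primary class mean by a similar distance in most libraries. The secondary minus primary value was -1.08, -1.27 and -1.73 for wild-type libraries and -1.10, -1.02 and -1.09 for overexpressor libraries. ZH11 replicate 1 fell inside the overexpressor range and the other wild-type libraries below it. The means were -1.36 ± 0.33 in ZH11 and -1.07 ± 0.04 in DGP1-OE1 (SD, n = 3 each), a difference of 0.29 that dropped to 0.10 without ZH11 replicate 3. On this scale values below 1 FPKM are compressed. DGP1-OE1 replicate 2 had the lowest mean of both classes, 1.03 for the primary and 0.01 for the secondary class. Its value of -1.02 therefore did not stand out, although this library held hardly any secondary wall transcript. With a pseudocount of 0.1 in place of 1 the difference was 0.59.

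**Figure D3:**
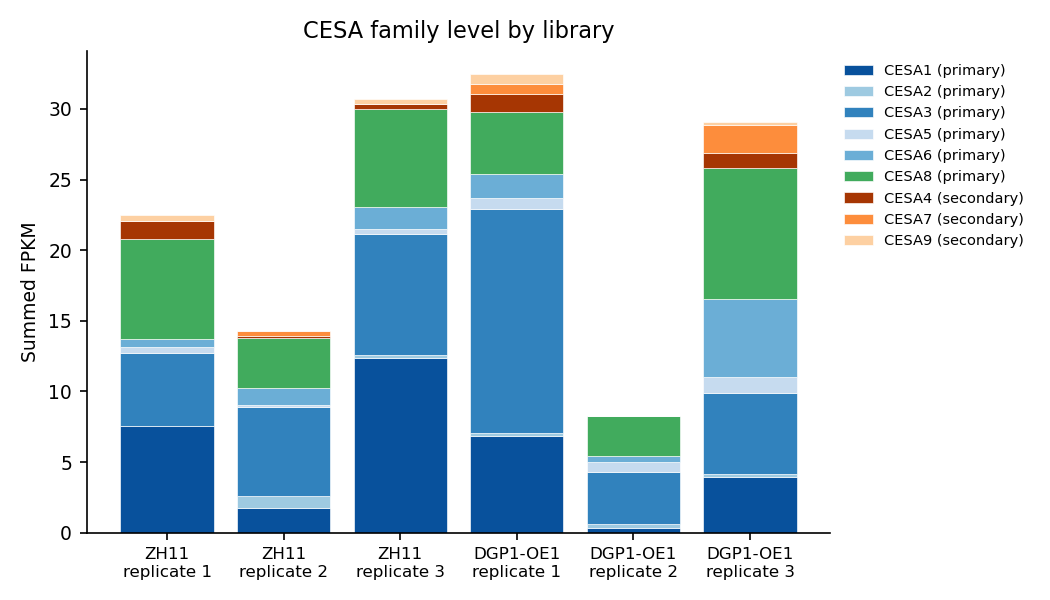
Summed FPKM of the 9 CESA genes in each library, stacked by gene, with blue and green shades for primary and orange shades for secondary wall genes. Sums run from 8.27 FPKM in DGP1-OE1 replicate 2 to 32.5 FPKM in DGP1-OE1 replicate 1, and the orange part is at most 11.3% of a bar.

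Libraries of the same genotype differed more in their summed CESA level than the genotypes did. Summed CESA FPKM came to 22.5, 14.3 and 30.7 over the wild-type libraries and to 32.5, 8.27 and 29.1 over the overexpressor libraries. Replicate 2 was lowest in each genotype, and the genotype means of 22.5 ± 8.2 and 23.3 ± 13.1 FPKM (SD, n = 3 each) differed by far less than the spread. DGP1-OE1 replicate 2 was the lowest library for all 5 tested members. Among the 18270 genes tested it was the lowest library for 12.5% and the highest for 25.6%, and its median over all rows was 7.97 FPKM, within the range of 6.69 to 8.29 FPKM of the 6 libraries. The low CESA values there therefore went with a library whose other genes were mostly not low. What lies behind this was not tested.

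DGP1-OE1 replicate 3 was the highest library for CESA5, CESA6, CESA8 and CESA7, and DGP1-OE1 replicate 1 for CESA3 and CESA9. ZH11 replicate 1 was highest for CESA4, ZH11 replicate 3 for CESA1 and ZH11 replicate 2 for CESA2. DGP1-OE1 replicate 3 also had the most rows listed at 0, at 3.23% of the table, and DGP1-OE1 replicate 1 the fewest, at 0.284%, yet neither had a CESA gene at 0. The 4 other libraries had 1 or 2 members at 0, always CESA2, CESA7 or CESA9.

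Ratios of listed FPKM between the members of a class varied between libraries. The ratio of CESA1 to CESA3 was 1.45, 0.285 and 1.44 for wild-type libraries and 0.431, 0.0983 and 0.686 for overexpressor libraries, a span of 14.7-fold. CESA1 was thus the more abundant of this pair only in ZH11 replicates 1 and 3. The lowest of these ratios rests on 0.366 FPKM of CESA1 in DGP1-OE1 replicate 2. Outside the replicate 2 libraries they ran from 0.431 to 1.45. The ratio of CESA8 to CESA3 spanned less, from 0.274 in DGP1-OE1 replicate 1 to 1.61 in DGP1-OE1 replicate 3. Of the summed family, CESA1 took 33.5%, 12.5% and 40.3% in the wild type and 21%, 4.42% and 13.6% in the overexpressor. ZH11 replicate 2 lay within the overexpressor range, and the other wild-type libraries above it. In the secondary class, CESA4 was 3.28 and 1.02 times CESA9 in ZH11 replicates 1 and 3 and 1.71 and 3.83 times CESA9 in DGP1-OE1 replicates 1 and 3, with no ratio for the replicate 2 libraries, where CESA9 was at 0. The ratios to CESA9 rest on low values of it, from 0.281 to 0.752 FPKM, at unknown depth.

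With all 6 libraries and no block for the replicate number, the spread within genotypes was wider for the tested members than for the median gene. The within-genotype SD on the log2(FPKM + 1) scale was 1.24 for CESA1, larger than for 99% of the genes tested. It was 0.814 for CESA6, 0.704 for CESA3, 0.611 for CESA8 and 0.591 for CESA4, against a median of 0.366 over all genes tested. In plain FPKM the highest library exceeded the lowest 60.4-fold for CESA4, 33.8-fold for CESA1, 12.2-fold for CESA6, 4.25-fold for CESA3 and 3.31-fold for CESA8, with a median of 2.24-fold over the tested genes above 0 in all libraries. These folds lean on DGP1-OE1 replicate 2, the lowest library for each of the 5. That library held 0.0219 FPKM of CESA4 and 0.366 FPKM of CESA1. The fold of CESA4 is thus a ratio to a value near 0, at unknown depth. The SDs also depended on single libraries. That of CESA3 was 0.334 without DGP1-OE1 replicate 1, where the median of all genes tested was 0.383. That of CESA6 was 0.474 without DGP1-OE1 replicate 3, where the median was 0.338. That of CESA1 was 0.462 without both replicate 2 libraries, a choice made after seeing the data, where the median was 0.316. With all libraries and the replicate number as a block, the residual SD was 0.473 for CESA1, 0.350 for CESA8 and 0.287 for CESA4. In that fit it was 0.818 for CESA3 and 0.715 for CESA6, against a median of 0.298.

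**Figure D4:**
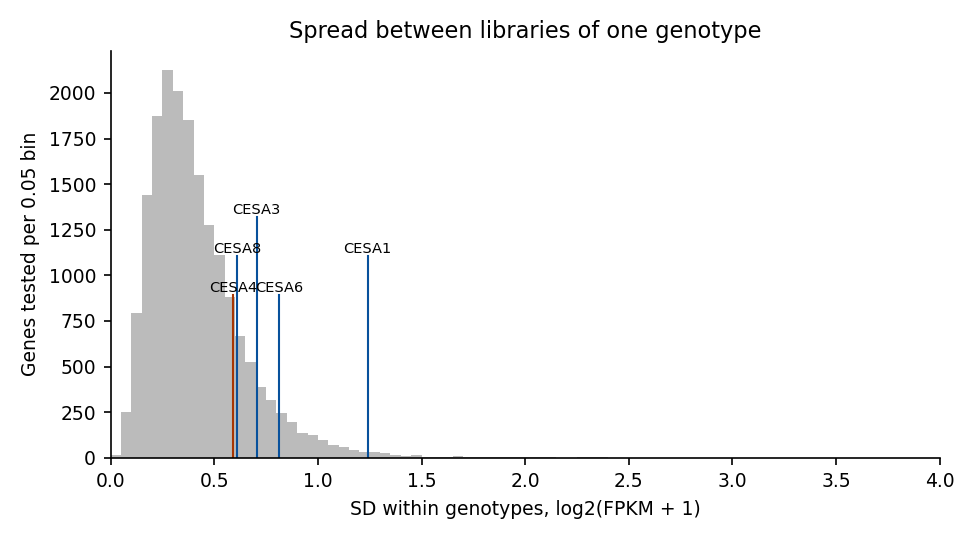
Distribution over the 18270 genes tested of the SD between libraries within genotypes on the log2(FPKM + 1) scale (grey bars), with vertical lines for the 5 CESA genes tested, primary in blue and secondary in orange. All 5 lines lie above the median of 0.366, from 0.591 for CESA4 to 1.24 for CESA1; the heights of the lines carry no value.

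Relations between members across the 6 libraries were computed for all 36 pairs, by Pearson's r and by Spearman's rho (exact permutation tests over 720 pairings, two-sided). The smallest p these pairings allow is 0.00139 for Pearson's r, and it is no smaller for rho. Multiplied by 36 pairs, 0.00139 is 0.05, so no pair by itself could fall under 0.05 after adjustment. The adjusted values therefore say nothing about the absence of a relation. Before adjustment 2 pairs had a p under 0.05 by Pearson's r. CESA4 and CESA9, both of the secondary class, had r = 0.84 (exact permutation p = 0.0306, adjusted p = 0.55) and rho = 0.87 (exact permutation p = 0.0333, adjusted p = 0.77). CESA6 and CESA7, from different classes, had r = 0.92 (exact permutation p = 0.025, adjusted p = 0.55) and rho = 0.82 (exact permutation p = 0.0667, adjusted p = 0.77). Leaving out the 2 libraries farthest from the median of the first gene brought r to 0.43 for CESA4 with CESA9 and to 0.56 for CESA6 with CESA7, with 4 libraries and a narrower range of levels left.

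The tested genes whose log2(FPKM + 1) ran most like the mean of the primary class over the 6 libraries were Os09g0450300 and Os06g0531600, with Pearson's r of 0.996 and 0.994. Os09g0450300 stood at 3.6, 2.58 and 7.08 FPKM in the wild type and at 7.23, 0.957 and 6.69 FPKM in DGP1-OE1. Its low in replicate 2 of each genotype comes with its choice by likeness to the class mean, which is lowest there too. For the mean of the secondary class they were Os02g0133100 and Os02g0102200, with r of 0.983 and 0.982. The level of Os02g0133100 varied little, from 25.55 to 34.47 FPKM over the 6 libraries, since r takes no account of the size of a change. Os02g0102200 stood at 12.9, 8.83 and 9.11 FPKM in the wild type and at 21.5, 7.47 and 18.3 FPKM in DGP1-OE1. They were picked as the highest of 18265 values of r, and r was 0.9 or more for 230 genes with the primary class and for 81 genes with the secondary class. The sources used here give no name for these loci.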

How the data were processed

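RNA from leaves was sequenced as Illumina libraries, per the labels' protocols. The authors deposited FPKM for 19696 rows, of which 18804 carry a rice locus ID. HISAT2 2.0, StringTie 1.3.0 and Bowtie 0.12.2 appear without a role in the submitters' processing notes, beside a mouse genome build that cannot belong to rice IDs. The genome build for rice was not given in the sources used here. Overexpressor columns are headed DGP1-OE plus a number, taken as the DGP1-OE1 replicate of that number. Depth is unknown: low FPKM values showed no step worth 1 read (at most 3.7% of genes under 0.5 FPKM in a pair of libraries shared 1 ratio within a window of 0.02 log2 units).

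Genes with FPKM of at least 1 in at least 3 of 6 libraries were tested. Values of log2(FPKM + 1) were fitted for all 18270 such genes with limma 3.58.1 (R 4.3.3), with an intensity trend, two-sided, with Benjamini-Hochberg adjustment over all genes and a threshold of 0.05. Such differences understate changes of low genes. Fits that left out libraries kept the same genes. Class sums, ratios and scores got no test.

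The members, lists and tests were chosen with earlier results of these data known. All 9 members are named, with the 2 genes most like each class. The planned lists of other wall genes and leaf markers, promoter motifs and protein comparisons were not run: 0 of the table's IDs matched RefSeq's rice gene table, and no sequences were used here. Alternatives are given in the closing section.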

Additional observations from a re-analysis of the deposited data

How the results depend on the processing

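In none of the 13 other settings was a CESA member called, which covers a pseudocount of 0.1, no filter on low values, median-of-ratios scaling, equal totals, no intensity trend, the replicate number as a block, each library left out in turn, and both replicate 2 libraries left out (chosen after seeing the data). CESA1 had an unadjusted p under 0.05 in 2 of them, without ZH11 replicate 2 (limma, adjusted p = 0.425) and in the fit with the replicate block (limma, adjusted p = 0.338). Its log2 difference was negative in every setting, from -1.51 to -0.13. Leaving out 1 library turned the sign of CESA3 (range -0.42 to 0.50, with -0.04 without ZH11 replicate 1), CESA4 (-0.065 to 0.52, with -0.062 without DGP1-OE1 replicate 1), CESA6 (-0.059 to 1.03) and CESA8 (-0.55 to 0.16). It also turned the untested CESA2 (-0.26 to 0.18) and CESA9 (-0.13 to 0.28), and a pseudocount of 0.1 turned CESA2 as well (0.15). The difference of the secondary minus primary value ran from 0.10 to 0.43 when 1 library was left out and was 0.59 with a pseudocount of 0.1, which spreads low values.

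Over all genes, 29 were called higher and 36 lower. With the replicate block the counts were 130 and 139, without both replicate 2 libraries 61 and 83, and when 1 library was left out 16 to 39 and 9 to 42. Lower calls fell to 21 under the smaller pseudocount and to 14 when the intensity trend was dropped. The cause was not tested. The labels do not pair equal numbers, so the main fit did not take the numbers as pairs. Library deviations from the group means had r of 0.017, 0.38 and 0.14 between equal numbers 1, 2 and 3. Between unequal numbers r ran from -0.28 to 0.21, the highest being ZH11 replicate 3 with DGP1-OE1 replicate 1. The median residual SD of all genes tested was 0.298 with the replicate block and 0.366 without it. The block leaves fewer residual degrees of freedom, which by itself lowers the median of such SDs. The drop is therefore not a measure of what equal numbers share. Whether equal numbers share a batch was not tested. With depth unknown, zeros and missed differences of low members cannot be assigned to low coverage.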
